A study of Mus musculus with 15 samples.

Results

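IL-33 given together with IL-13 and IL-17A, the triple combination, was compared with IL-33 alone in primary fibroblasts cultured from the lungs of wild-type BALB/cJ mice. The comparison rests on 6 of the series' 15 libraries, taken by their treatment label. Of these, 3 are labelled IL-33/13/17A and 3 are labelled IL-33. Of the 18078 genes in the files, 13265 reached 1 TPM in at least 3 of the 6 libraries and were tested. All cells were wild type, and every treatment lasted 20 h. Because both groups had IL-33, the comparison measures what the pair of added cytokines changed on top of it. The study also holds 3 libraries each of IL-33/17A, IL-33/13 and untreated cells, whose levels are given beside the main values. By its title, the series concerns the response of lung fibroblasts to these cytokines and their secretion of factors that activate macrophages, the question behind the gene groups followed here. The labels name no cytokine dose, no passage and no mouse age, and they do not say whether libraries of a group came from separate cultures or animals. The p-values therefore measure only the spread between libraries, which may be technical.

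Levels are TPM, reads per gene divided by a gene length and scaled to the same total in every library. The gene length in these files counts introns as well as exons, so changes were tested within a gene. Sums over a list, and levels called high or abundant, depend on this length, and genes with a short span weigh more in them. A ± beside a mean TPM is the SD over 3 libraries. A log2 change is the difference of the mean log2(TPM + 1) of the groups with its SE, IL-33/13/17A minus IL-33 unless another group is named, and it understates the change of low genes. A gene was called, and is said to have risen or fallen with IL-33/13/17A, at an adjusted p under 0.05 (limma, Benjamini-Hochberg over the 13265 genes). In bulk RNA, fewer cells of a type and less RNA per cell cannot be told apart.

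Damaged barrier cells release IL-33, a relative of IL-1 that signals through the receptor ST2, MyD88 and NF-kB. IL-13, a type 2 cytokine, binds receptors that hold the IL-4 receptor alpha chain and activates the transcription factor STAT6. IL-17A, a cytokine of type 3 immunity, acts through IL-17RA and the adaptor Act1, prolongs the life of many cytokine mRNAs and raises the NF-kB cofactor IkB-zeta. Fibroblasts of the lung make its collagen, can turn on a contractile programme under TGF-beta, and answer inflammatory cytokines with chemokines and growth factors for leukocytes.

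The promoters of 3 chemokine genes that rose, of the STAT-induced gene Cish and of a contractile gene that fell are shown. They were chosen because each holds one of the motifs searched, so they do not represent their gene lists. Each is a RefSeq window on GRCm38.p6 that runs from 250 bases before to 50 bases after the RefSeq start of the gene. In the neutrophil chemokine genes Cxcl1 (chr5:90890995-90891294, + strand), Cxcl2 (chr5:90903649-90903948, + strand) and Cxcl3 (chr5:90785851-90786150, + strand), the capitals mark matches to the kB-type motif GGGANNTTCC. The motif matched on both strands and these matches overlap, so 11 bases are in capitals. They begin 71, 97 and 73 bases before the start.
Cxcl1: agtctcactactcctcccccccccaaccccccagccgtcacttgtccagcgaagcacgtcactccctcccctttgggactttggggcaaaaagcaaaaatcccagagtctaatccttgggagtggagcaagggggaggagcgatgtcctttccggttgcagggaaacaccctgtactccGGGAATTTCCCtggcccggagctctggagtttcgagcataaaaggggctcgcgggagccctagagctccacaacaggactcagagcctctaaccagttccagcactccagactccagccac
Cxcl2: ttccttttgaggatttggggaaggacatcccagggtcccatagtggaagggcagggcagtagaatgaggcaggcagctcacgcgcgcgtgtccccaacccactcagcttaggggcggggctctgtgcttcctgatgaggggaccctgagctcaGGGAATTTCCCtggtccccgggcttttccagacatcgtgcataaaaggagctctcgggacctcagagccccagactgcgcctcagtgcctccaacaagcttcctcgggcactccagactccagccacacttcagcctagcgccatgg
Cxcl3: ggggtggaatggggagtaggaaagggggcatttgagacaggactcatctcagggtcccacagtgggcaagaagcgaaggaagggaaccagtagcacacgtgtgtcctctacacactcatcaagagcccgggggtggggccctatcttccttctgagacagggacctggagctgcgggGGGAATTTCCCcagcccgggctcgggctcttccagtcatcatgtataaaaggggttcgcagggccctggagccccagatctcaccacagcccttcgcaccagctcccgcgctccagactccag
Of the 14 genes in the list of neutrophil factors, 12 had a window, and these 3 genes were the ones with the motif. Among all 32841 windows of the table, 1.47% held it. In Cish (chr9:107296409-107296708, + strand) the capitals mark 2 matches to the STAT-type motif TTCNNNGAA, which begin at the start and 11 bases after it.
Cish: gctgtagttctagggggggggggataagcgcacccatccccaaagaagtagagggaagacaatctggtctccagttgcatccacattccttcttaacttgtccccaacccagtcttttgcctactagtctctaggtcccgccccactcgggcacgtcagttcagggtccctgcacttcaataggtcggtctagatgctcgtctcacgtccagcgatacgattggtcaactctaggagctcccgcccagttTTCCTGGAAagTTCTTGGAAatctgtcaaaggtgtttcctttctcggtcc
Of the 27 genes in the list of STAT6 responses, 22 had a window. TTCNNNGAA was found for 6 of these 22 genes, against 8.3% of all windows, and the wider TTCNNNNGAA for 5, against 6.95%. In Myl9 (chr2:156775214-156775513, + strand), a myosin light chain gene chosen after its values were seen, the capitals mark a CArG box, the element bound by serum response factor, 161 bases before the start.
Myl9: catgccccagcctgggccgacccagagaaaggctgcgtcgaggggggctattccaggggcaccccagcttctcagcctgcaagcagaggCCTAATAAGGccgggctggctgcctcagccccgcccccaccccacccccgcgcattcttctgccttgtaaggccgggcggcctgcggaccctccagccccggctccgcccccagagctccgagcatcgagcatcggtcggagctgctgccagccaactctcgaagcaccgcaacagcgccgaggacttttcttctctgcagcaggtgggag
Of the 18 contractile genes listed, 13 had a window and 3 of these, Acta1, Cnn2 and Myl9, held a CArG box, which 1.63% of all windows held. The windows of Acta2, Cnn1, Ankrd1 and Lmod1 held none. Of the neutrophil factors, Ppbp held a CArG box and no kB-type motif, and of the STAT6 responses, Egr2 and Fcer2a held a CArG box. A listed gene was counted if any of its windows matched, whereas the shares of all windows count each window alone. Genes with several windows can thus raise the list counts, and the 2 measures are not strictly alike. All motifs were searched on both strands, and a match is a description of the letters only.

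The libraries hold 11642000 to 11832000 reads each with IL-33/13/17A and 11021000 to 11697000 reads with IL-33. These numbers were recovered by taking the most frequent product of TPM and gene length among low values as 1 read. In each of the 6 libraries, 12922 to 13065 genes reached 1 TPM. Replicate 1 of IL-33/13/17A stood apart from the other 5. Mitochondrially encoded genes made up 3.87% of its TPM, against 4.99% and 5.0% in replicates 2 and 3 of IL-33/13/17A and 4.77% to 5.45% in the IL-33 libraries. Over the whole series, 6 libraries were below 4.5%, among them all 3 of IL-33/13, and the labels name no batch. The fibroblast markers were high in all 6 libraries, and so were markers of macrophages, whose sums are given with the results. For the gene lists below, the count of called genes without replicate 1 of IL-33/13/17A is given where it differs.

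With IL-33/13/17A against IL-33, 3407 of the 13265 genes were called, 25.7%. Of these, 1128 were higher (8.5%) and 2279 lower (17.2%). The split between higher and lower depended on the scaling. With each library scaled by its median ratio over all genes, 1765 genes were higher and 1593 lower, and a voom fit on the recovered reads gave 1771 higher and 1686 lower. The median log2 change of all genes was -0.06 on TPM and 0.01 after that scaling, so changes of about this size carry no direction. Changes of at least 2-fold on the log2(TPM + 1) scale were found in 299 called genes (2.25%), of which 178 were higher (1.34%) and 121 lower (0.912%). Without replicate 1 of IL-33/13/17A, 3016 genes were called, 1073 higher and 1943 lower. The shares of 8.5% higher and 17.2% lower are the background for the counts of every gene list in this comparison. A gene under 1 TPM in every library of 1 group passed the filter only through the other group. Such genes, among them Chil3, Msx3 and Cdh1, could be called only as higher in that other group, and they are in the counts. The libraries of IL-33/13/17A and IL-33 did not overlap for 5208 genes (39.3%), 1675 higher (12.6%) and 3533 lower (26.6%). A lack of overlap is thus common, and its share was not computed for the other groups.

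**Figure D1:**
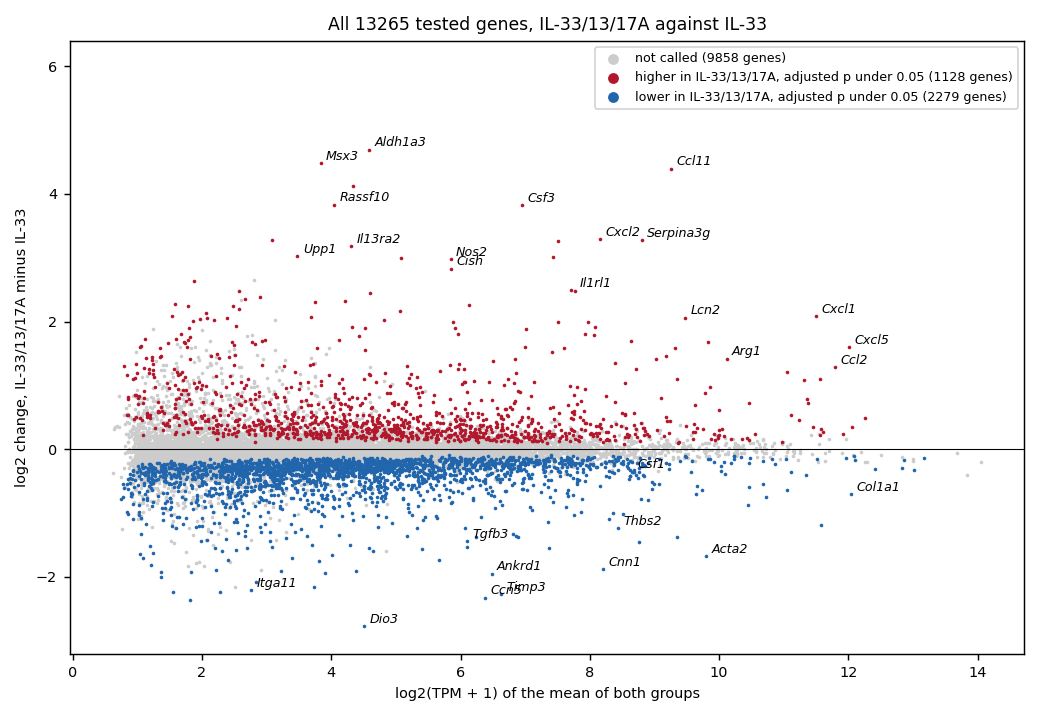
Each point is a gene, with the log2(TPM + 1) of the mean of both groups on the x axis and the log2 change, IL-33/13/17A minus IL-33, on the y axis. Red points are the 1128 genes called higher, blue points the 2279 called lower. Most called changes lie within 2-fold, and chemokine genes such as Cxcl1 combine a high level with a large rise.

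Factors that make, attract or arm neutrophils rose together. All 11 tested members of the list were called higher, beside 8.5% of all genes, and 8 rose at least 2-fold. Their median log2 change was 2.06, beside -0.06 over all genes, and their summed level was 15885 to 16173 TPM in the IL-33/13/17A libraries and 5389 to 5961 TPM in the IL-33 libraries. Csf3 (ENSMUSG00000038067, chromosome 11, 98701263 to 98703629), the gene of G-CSF, which drives the production of neutrophils, stood at 242, 216 and 233 TPM with IL-33/13/17A, against 113, 100.3 and 101 TPM with IL-33/17A, 34.5, 44.3 and 41.8 TPM with IL-33/13, 16.1, 14.2 and 15.8 TPM with IL-33 and 0.42, 0 and 0 TPM in untreated cells. The libraries of the triple combination were above every library of the other groups. The mean level was 15-fold that of IL-33, a log2 change of 3.82 ± 0.13 (adjusted p = 5e-10).

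The chemokines that bind the neutrophil receptor CXCR2 followed. Cxcl2 (ENSMUSG00000058427, chromosome 5, 90903871 to 90905938) was at 508, 527 and 520.4 TPM with IL-33/13/17A, against 164, 157 and 175 TPM with IL-33/17A, 149, 172 and 183 TPM with IL-33/13 and 55.2, 42.1 and 60.6 TPM with IL-33 (3.29 ± 0.24, adjusted p = 8e-07). Cxcl3 (ENSMUSG00000029379, chromosome 5, 90786103 to 90789600) was at 346, 319 and 317 TPM with IL-33/13/17A, against 92.9, 101 and 103 TPM with IL-33/17A, 186, 183 and 173 TPM with IL-33/13 and 33.5, 33.3 and 32.6 TPM with IL-33 (3.26 ± 0.11, adjusted p = 4.8e-10). For both genes the triple combination lay above both pairs and both pairs lay above IL-33, with no overlap between any of these steps. Cxcl1 (ENSMUSG00000029380, chromosome 5, 90891241 to 90893115) stood at 4666, 4694 and 4629 TPM with IL-33/13/17A, against 3699, 3519.8 and 3644 TPM with IL-33/17A, 1478, 1471 and 1582 TPM with IL-33/13 and 1061, 1059 and 1188 TPM with IL-33 (2.08 ± 0.15, adjusted p = 5.8e-07). Its difference from IL-33/17A, 0.37 ± 0.15, was not called (adjusted p = 0.12), although the libraries did not overlap. Cxcl5 averaged 6187 ± 178 TPM with IL-33/13/17A and 2049 ± 157 TPM with IL-33, and Ppbp, the gene of the platelet basic protein, 21.2 ± 5.32 TPM with IL-33/13/17A and 3.79 ± 2.17 TPM with IL-33. The Ppbp values rest on 30 to 44 reads with IL-33/13/17A and 2 to 8 reads with IL-33. These genes neighbour each other on chromosome 5, Cxcl5 starting at 90759360 and Cxcl2 at 90903871.

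Among the antimicrobial and acute-phase members, Lcn2 (ENSMUSG00000026822, chromosome 2, 32384633 to 32388252), whose product lipocalin 2 binds bacterial siderophores, stood at 1099, 1146 and 1198 TPM with IL-33/13/17A, against 1004, 771 and 799 TPM with IL-33/17A, 371, 351 and 379 TPM with IL-33/13 and 266, 269 and 286 TPM with IL-33. Both pairs lay below the triple combination, and the IL-33/13 libraries were nearer to IL-33 than to IL-33/17A. The change was 2.06 ± 0.10 (adjusted p = 2.1e-08). S100a8, a calprotectin subunit, changed by 1.01 ± 0.13, and the serum amyloid genes Saa1 and Saa3 by 0.91 ± 0.24 and 0.46 ± 0.10. Saa1 was low, at 1.76 ± 0.384 TPM with IL-33/13/17A and 0.545 ± 0.621 TPM with IL-33, and its call was the one lost without replicate 1 of IL-33/13/17A, which left 10. S100a8 is also a marker of neutrophils. Of the 11 listed neutrophil and eosinophil markers, the data hold 5. These summed to 158 to 182 TPM with IL-33/13/17A and 63.8 to 87.6 TPM with IL-33, almost wholly S100a8 and Camp, and both tested ones rose, Camp by 1.90 ± 0.25. Mpo, Siglecf and Prg2 were under 1 TPM in all 6 libraries. The part of such cells in these changes was not tested.

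**Figure D2:**
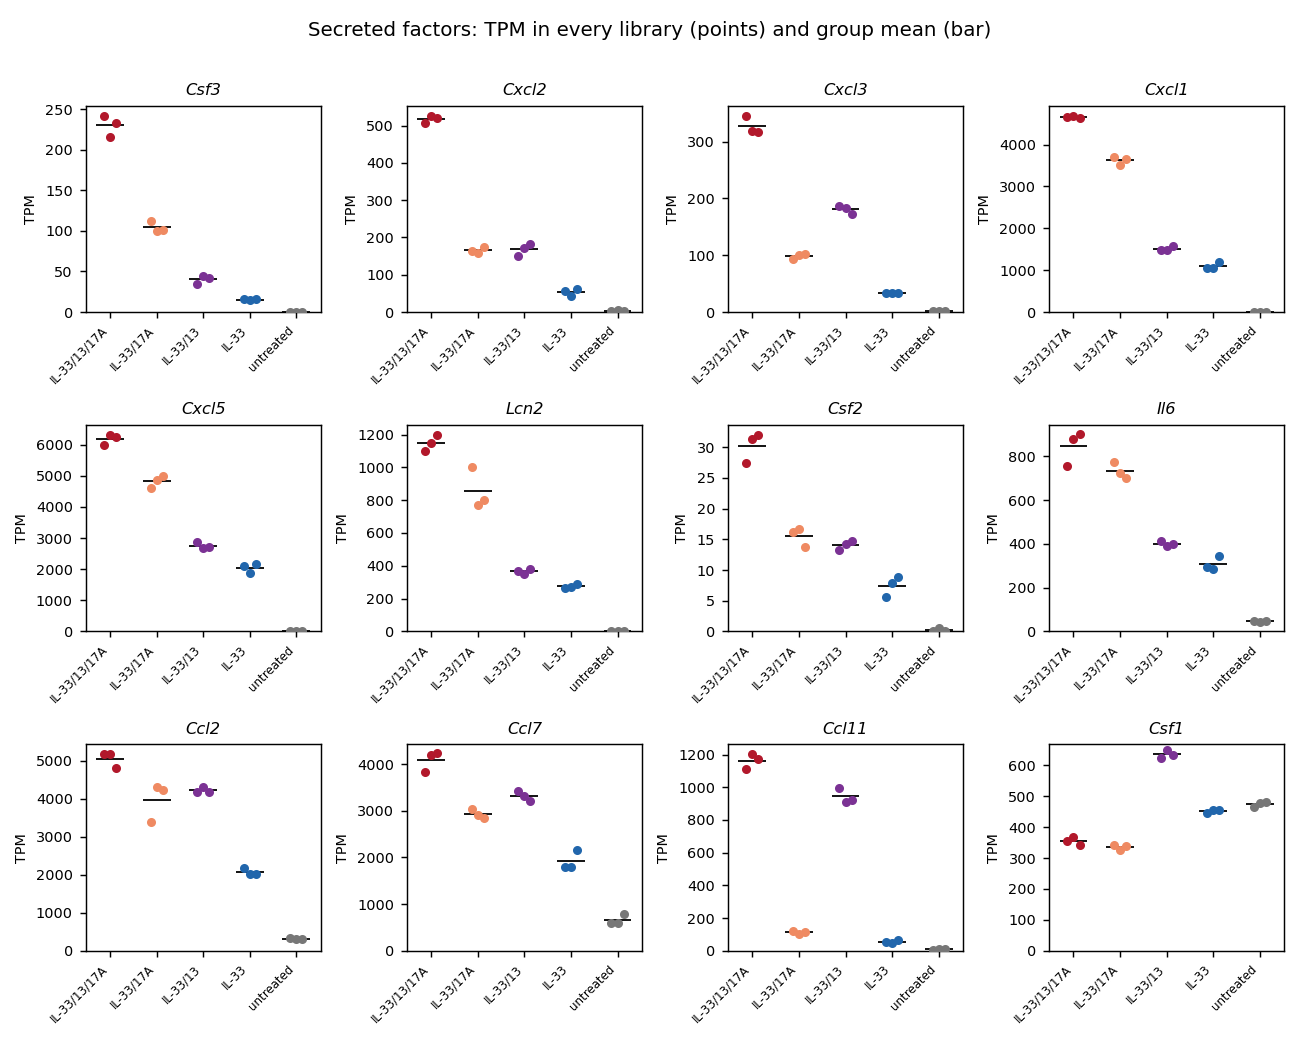
The TPM of 12 genes of secreted factors in every library, by group; points are libraries and bars are means of 3. Csf3, Cxcl2 and Cxcl3 are highest with IL-33/13/17A, Cxcl1 and Lcn2 are closer to IL-33/17A than to IL-33/13, Ccl11 is closer to IL-33/13, and Csf1 is below IL-33.

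Of the 26 tested factors that act on monocytes and macrophages, 16 rose and 4 fell, beside 8.5% and 17.2% of all genes, with a median log2 change of 0.59. Members such as Il6, Lif, Il33, Il1a, Tslp, Tnf and Ccl8 also belong to lists described below, so the counts of these lists overlap. The chemokines that draw monocytes through CCR2 were among the rises. Ccl2 (ENSMUSG00000035385, chromosome 11, 82035571 to 82037453) was at 5185, 5168 and 4806 TPM with IL-33/13/17A, against 3377, 4301 and 4231 TPM with IL-33/17A, 4181, 4309 and 4170.4 TPM with IL-33/13, 2185, 2009 and 2032 TPM with IL-33 and 331, 302 and 313 TPM in untreated cells. All libraries of the triple combination were above those of the other groups, and the pairs overlapped each other. The difference from IL-33/17A was called (0.36 ± 0.08, adjusted p = 0.0077), and that from IL-33/13 was not (0.26 ± 0.08, adjusted p = 0.064). The change from IL-33 was 1.28 ± 0.08 (adjusted p = 1.1e-07). Ccl7 (ENSMUSG00000035373, chromosome 11, 82045712 to 82047525) averaged 4092 ± 226 TPM with IL-33/13/17A and 1914 ± 207 TPM with IL-33 (1.10 ± 0.10, adjusted p = 6e-06). Ccl12, a further monocyte chemokine of the mouse, changed by 0.94 ± 0.10, and the CCR1 ligand genes Ccl9 and Ccl6 by 0.88 ± 0.05 and 0.79 ± 0.03.

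The 2 colony-stimulating factors of macrophages moved in opposite directions. Csf2 (ENSMUSG00000018916, chromosome 11, 54247271 to 54249667), the gene of GM-CSF, was at 27.4, 31.4 and 32 TPM with IL-33/13/17A, against 16.2, 16.6 and 13.7 TPM with IL-33/17A, 13.3, 14.2 and 14.8 TPM with IL-33/13 and 5.58, 7.88 and 8.85 TPM with IL-33. The triple combination was above both pairs, which overlapped each other, and the change from IL-33 was 1.91 ± 0.16 (adjusted p = 2.9e-06). Csf1 (ENSMUSG00000014599, chromosome 3, 107741048 to 107760469), the gene of M-CSF, on which macrophages depend for survival, was at 354, 368 and 341 TPM with IL-33/13/17A, against 342, 325 and 338 TPM with IL-33/17A, 624, 652 and 634 TPM with IL-33/13, 447, 454 and 457 TPM with IL-33 and 466, 479.5 and 482 TPM in untreated cells. It was the highest with IL-33/13, whereas the triple combination overlapped IL-33/17A and both lay below IL-33. Its log2 change from IL-33 was -0.35 ± 0.03 (adjusted p = 6.3e-06). Tnf was the factor with the largest fall of the list. It stood at 3.82, 6.17 and 7.67 TPM with IL-33/13/17A, against 19.6, 19.2 and 20.0 TPM with IL-33/17A, 7.2, 6.82 and 7.07 TPM with IL-33/13 and 14.9, 19.2 and 20.4 TPM with IL-33 (-1.51 ± 0.19, adjusted p = 7.9e-05). The levels of Tnf with IL-13 present lay together and below all levels without it. The other factors that fell were Gas6, a ligand of the TAM receptors (-0.28 ± 0.03), and Spp1, the osteopontin gene (-0.16 ± 0.04), whose call was lost with median-ratio scaling.

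Genes of the IL-6 family, whose members signal through the shared chain gp130, rose in 6 of 10 tested cases and fell in none (median 0.55). Il6 (ENSMUSG00000025746, chromosome 5, 30013114 to 30019981) was at 757, 881 and 899.8 TPM with IL-33/13/17A, against 775, 722 and 699 TPM with IL-33/17A, 412, 389 and 401 TPM with IL-33/13 and 294, 283 and 342 TPM with IL-33 (1.46 ± 0.08, adjusted p = 3.6e-08). The triple combination overlapped IL-33/17A, and its difference from that pair, 0.21 ± 0.08, was not called (adjusted p = 0.1). Lif averaged 414 ± 18.4 TPM with IL-33/13/17A and 119 ± 2.07 TPM with IL-33, Il11 252 ± 17.9 TPM with IL-33/13/17A and 86.9 ± 3.0 TPM with IL-33, and Osm 80.7 ± 4.09 TPM with IL-33/13/17A and 31.9 ± 3.98 TPM with IL-33. Clcf1 rose by 0.82 ± 0.12 and the gp130 gene Il6st by 0.21 ± 0.05. Among the genes not called were the receptor chains Il6ra, Il11ra1 and Osmr, with log2 changes of -0.10 ± 0.07, -0.03 ± 0.05 and -0.11 ± 0.12.

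In the IL-1 family 6 of 9 tested genes rose and none fell (median 0.52). Il33 itself (ENSMUSG00000024810, chromosome 19, 29925114 to 29960718) was at 46.9, 58.4 and 55.1 TPM with IL-33/13/17A, against 30.0, 23.6 and 21.8 TPM with IL-33/17A, 18.9, 16.6 and 17.4 TPM with IL-33/13, 9.94, 11.4 and 11.9 TPM with IL-33 and 4.66, 4.39 and 4.3 TPM in untreated cells. The level of this alarmin gene was highest with IL-33/13/17A, with no overlap with any other group. The change from IL-33 was 2.17 ± 0.11 (adjusted p = 2.5e-08). Tslp, the gene of another alarmin, averaged 19.8 ± 2.14 TPM with IL-33/13/17A and 3.97 ± 0.628 TPM with IL-33 (2.07 ± 0.12). The cytokine genes Il1a and Il1b changed by 1.81 ± 0.19 and 0.52 ± 0.15, and the IL-1 receptor gene Il1r1 by 0.74 ± 0.08. Among 16 tested TNF family ligands and receptors, 7 rose and 6 fell, 5 without replicate 1 of IL-33/13/17A. After Tnf, the largest changes were rises of Tnfsf15 (1.0 ± 0.08), a T cell costimulator, and of Tnfsf11 (0.64 ± 0.11), the gene of the osteoclast factor RANKL.

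Receptor chains of the 3 cytokines did not move as a block. Of 9 tested receptor and adaptor genes 2 rose, 1 fell and 6 were not called, beside 8.5% higher and 17.2% lower over all genes. The rises were those of Il13ra2 and of the IL-33 receptor gene Il1rl1, and the fall was that of Il17ra. Il13ra2 (ENSMUSG00000031289, chromosome X, 147383476 to 147429192), the gene of the decoy receptor that takes up IL-13, was at 29.8, 36.1 and 37.6 TPM with IL-33/13/17A, against 7.11, 6.4 and 5.78 TPM with IL-33/17A, 22.4, 21.1 and 23.2 TPM with IL-33/13, 2.63, 2.76 and 3.34 TPM with IL-33 and 0.152, 0.149 and 0.163 TPM in untreated cells (3.18 ± 0.09, adjusted p = 1.8e-10). The triple combination was above IL-33/13, IL-33/13 above IL-33/17A and IL-33/17A above IL-33, without overlap. Il1rl1 (ENSMUSG00000026069, chromosome 1, 40429570 to 40465415), the gene of the IL-33 receptor ST2 and of its soluble form, was at 345, 383 and 373 TPM with IL-33/13/17A, against 87.6, 78.1 and 87.8 TPM with IL-33/17A, 345, 327 and 335 TPM with IL-33/13 and 62.6, 58.6 and 74.4 TPM with IL-33 (2.48 ± 0.08, adjusted p = 4.2e-10). The triple combination differed from IL-33/13 by 0.13 ± 0.08, which was not called (adjusted p = 0.36). The TPM do not separate the membrane form from the soluble one. Il17ra, the shared chain of IL-17 receptors, averaged 34.3 ± 1.42 TPM with IL-33/13/17A and 49.7 ± 1.64 TPM with IL-33 (-0.52 ± 0.06, adjusted p = 7e-05). Il4ra, the signalling chain for IL-13, averaged 288 ± 7.84 TPM with IL-33/13/17A and 299.7 ± 7.68 TPM with IL-33, a change of -0.06 ± 0.04 that missed the threshold (adjusted p = 0.28). Il13ra1, Il17rc, Il1rap, Il2rg and the Act1 gene Traf3ip2 were not called either, with changes between -0.12 (Il2rg) and 0.10 (Il17rc).

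Genes known as STAT6 responses rose in 15 of 19 tested cases (median 0.92), beside 8.5% of all genes, and Bcl6, a repressor gene, fell (-0.33 ± 0.08). The count of rises includes Chil3, which passed the filter only through its level with IL-33/13/17A and could not have fallen. Without replicate 1 of IL-33/13/17A, 14 rose. Ccl11 (ENSMUSG00000020676, chromosome 11, 82057823 to 82062955), the eotaxin gene whose product attracts eosinophils through CCR3, stood at 1109.9, 1202 and 1172 TPM with IL-33/13/17A, against 122, 102 and 113 TPM with IL-33/17A, 997, 913 and 923 TPM with IL-33/13, 56.5, 45 and 63.4 TPM with IL-33 and 6.0, 8.84 and 8.07 TPM in untreated cells. All libraries with IL-13 were far above all libraries without it, and IL-33/13/17A was above IL-33/13 in every library, a difference that was not called (0.30 ± 0.13, adjusted p = 0.19). The mean with IL-33/13/17A was 21.1-fold that with IL-33, a log2 change of 4.39 ± 0.13 (adjusted p = 1.9e-10). Cish (ENSMUSG00000032578, chromosome 9, 107296026 to 107302784), which encodes an inhibitor of cytokine signalling that STAT proteins induce, was at 107, 102 and 92.5 TPM with IL-33/13/17A, against 26.3, 31.9 and 29.6 TPM with IL-33/17A, 96.2, 94.8 and 107 TPM with IL-33/13 and 14, 13.4 and 12.4 TPM with IL-33 (2.83 ± 0.10, adjusted p = 7.3e-10). The triple combination and IL-33/13 overlapped (0.02 ± 0.10). The related inhibitor genes Socs1 and Socs3 changed by 1.26 ± 0.17 and 1.11 ± 0.07. Of 21 tested SOCS, DUSP and Sprouty genes, 7 rose and 2 fell (6 and 3 without replicate 1 of IL-33/13/17A). Serpina3g averaged 809.6 ± 35.6 TPM with IL-33/13/17A and 82.9 ± 7.06 TPM with IL-33 (3.27 ± 0.07), but it has near-identical neighbours in its gene cluster, between which reads may have been shared.

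STAT6 targets best known from macrophages rose as well. Mrc1, the mannose receptor gene, averaged 154 ± 10.5 TPM with IL-33/13/17A and 81.1 ± 2.85 TPM with IL-33, and Mgl2, a lectin gene, 8.78 ± 2.14 TPM with IL-33/13/17A and 4.85 ± 0.986 TPM with IL-33. Chil3, which encodes the chitinase-like protein Ym1, was at 1.6, 1.57 and 1.25 TPM with IL-33/13/17A and was listed at 0 in all IL-33 libraries. Retnla, the gene of RELM-alpha, was under the filter, with 2.39, 0.998 and 1.0 TPM in the IL-33/13/17A libraries and 0 in those of IL-33. Macrophage markers summed to 18559 to 19406 TPM with IL-33/13/17A and 19892 to 20013 TPM with IL-33, and their part in these changes was not tested. Of 5 tested eosinophil and type 2 factors, 4 rose, all but Ccl24 also without replicate 1 of IL-33/13/17A. Beside Ccl11 and Tslp these were Ccl8, a CCR8 ligand in the mouse (1.03 ± 0.10), and Ccl24, the gene of eotaxin-2 (1.04 ± 0.34, adjusted p = 0.041). Ccl24 rests on 6 to 10 reads per IL-33/13/17A library and 0 to 5 per IL-33 library, and its call was lost without any of 4 libraries, replicates 1 and 3 of IL-33/13/17A and replicates 1 and 2 of IL-33.

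IL-17 response genes rose in 18 of 21 tested cases and fell in none (median 1.42), beside 8.5% of all genes higher. The list shares Csf3, Cxcl1, Cxcl2, Cxcl5, Lcn2 and Saa3 with the neutrophil factors. Nfkbiz, the gene of IkB-zeta, was at 126, 132 and 131 TPM with IL-33/13/17A, against 164, 152 and 156 TPM with IL-33/17A, 42.2, 42.4 and 43.6 TPM with IL-33/13 and 48.8, 47.6 and 50.9 TPM with IL-33 (1.38 ± 0.04, adjusted p = 7.8e-11). Its level with IL-33/13/17A was below that with IL-33/17A (-0.28 ± 0.04, adjusted p = 0.00031). Zc3h12a (ENSMUSG00000042677, chromosome 4, 125118423 to 125127840), the gene of the RNase Regnase-1 that degrades cytokine mRNAs, was at 311, 281 and 277 TPM with IL-33/13/17A, against 266, 251 and 264 TPM with IL-33/17A, 108, 109 and 110.4 TPM with IL-33/13 and 72, 72.9 and 70.7 TPM with IL-33 (1.99 ± 0.05, adjusted p = 7e-11). Both groups with IL-17A were above both groups without it. Of the other 9 tested regulators of cytokine mRNA decay, Zfp36l1 rose (0.34 ± 0.04) and Zfp36l2 fell (-0.41 ± 0.10, adjusted p = 0.0092). The call of Zfp36l2 was lost with median-ratio scaling. Among 18 tested NF-kB subunits and feedback genes 5 rose and 2 fell (8 and 1 with median-ratio scaling). After Nfkbiz the largest rise was that of Nfkb1 (0.80 ± 0.06), and the largest fall that of Nfkbie, an IkB gene (-0.54 ± 0.11). Of 16 AP-1 and immediate early genes, 5 rose and 1 fell (4 rose and none fell without replicate 1 of IL-33/13/17A), led by Ier3, an early response gene (1.08 ± 0.04), with Fos and Jun at 0.08 ± 0.06 and 0.04 ± 0.04 and not called. Of 15 C/EBP and KLF factors, Cebpd, a partner of NF-kB at acute-phase genes, rose (0.45 ± 0.05) and 5 fell, among them Klf13 (-0.38 ± 0.04), beside 8.5% higher and 17.2% lower over all genes.

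The enzymes that compete for arginine both rose. Nos2 (ENSMUSG00000020826, chromosome 11, 78920787 to 78960254), the inducible nitric oxide synthase, stood at 98.5, 99.5 and 105 TPM with IL-33/13/17A, against 142, 123 and 122 TPM with IL-33/17A, 6.89, 6.57 and 7.57 TPM with IL-33/13, 11.8, 12.5 and 11.6 TPM with IL-33 and 0.0503, 0.0862 and 0.135 TPM in untreated cells. It rose by 2.98 ± 0.07 relative to IL-33 (adjusted p = 1.9e-11) and lay below IL-33/17A (-0.34 ± 0.07, adjusted p = 0.0034). Arg1 (ENSMUSG00000019987, chromosome 10, 24915221 to 24927484), the arginase gene, was at 1603, 1598 and 1630.4 TPM with IL-33/13/17A, against 771, 886 and 772 TPM with IL-33/17A, 1687, 1677 and 1611 TPM with IL-33/13 and 599, 587 and 623 TPM with IL-33. It rose by 1.42 ± 0.05 (adjusted p = 7.3e-10) and did not differ detectably from IL-33/13 (-0.04 ± 0.05, adjusted p = 0.63). The arginine transporter gene Slc7a2 averaged 115 ± 6.06 TPM with IL-33/13/17A and 23.1 ± 0.562 TPM with IL-33, and Odc1, which starts polyamine synthesis, 949.9 ± 35.8 TPM with IL-33/13/17A and 318 ± 32.7 TPM with IL-33. In all, 7 of the 13 tested genes of arginine and nitric oxide metabolism rose (6 without replicate 1 of IL-33/13/17A) and 2 fell, Ddah2 (-0.68 ± 0.07) and Slc7a1 (-0.26 ± 0.06).

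Of 16 tested genes for prostaglandins and leukotrienes 10 rose and 3 fell (2 fell without replicate 1 of IL-33/13/17A), with a median of 0.48. The chain that makes prostaglandin E2 was among them. Ptgs2, the gene of cyclooxygenase 2, was at 2772, 3048 and 3043 TPM with IL-33/13/17A, against 2536, 2285 and 2293 TPM with IL-33/17A, 1597, 1555 and 1614 TPM with IL-33/13 and 1226, 1260.3 and 1343 TPM with IL-33 (1.21 ± 0.05, adjusted p = 3.3e-09). The triple combination was above IL-33/17A, IL-33/17A above IL-33/13 and IL-33/13 above IL-33. Ptges, the PGE2 synthase gene, changed by 1.10 ± 0.03. Ptgis, the prostacyclin synthase gene, and Ltc4s, the leukotriene C4 synthase gene, changed by 1.16 ± 0.06 and 1.23 ± 0.13. For these last genes the triple combination was near IL-33/13. Ptgis averaged 32.4 ± 1.95 TPM with IL-33/13/17A and 33.6 ± 1.66 TPM with IL-33/13, and Ltc4s averaged 70.4 ± 2.92 TPM with IL-33/13/17A and 73 ± 3.28 TPM with IL-33/13. Alox5, which opens the leukotriene pathway, fell (-0.47 ± 0.07).

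The named gene with the largest rise on the log2(TPM + 1) scale encodes an enzyme of retinoic acid synthesis. Aldh1a3 (ENSMUSG00000015134, chromosome 7, 66390890 to 66427517) was at 43.9, 46.5 and 44.6 TPM with IL-33/13/17A, against 0.956, 1.16 and 1.16 TPM with IL-33/17A, 43.9, 45.2 and 42.2 TPM with IL-33/13, 0.758, 0.516 and 1.1 TPM with IL-33 and 1.06, 0.836 and 0.638 TPM in untreated cells. The triple combination and IL-33/13 overlapped, and the groups without IL-13 were near 1 TPM, where the gene had 18 to 40 reads per IL-33 library. The log2 change was 4.69 ± 0.11 (adjusted p = 1.9e-11). Among the 13 tested retinoid genes 6 rose, among them Rdh10 (0.78 ± 0.07) and Dhrs9 (0.65 ± 0.11), and 2 fell, the receptor genes Rarg (-0.37 ± 0.05) and Rara (-0.21 ± 0.07), the call of Rara being lost with median-ratio scaling and without replicate 1 of IL-33/13/17A. Msx3 (ENSMUSG00000025469, chromosome 7, 140046157 to 140049089), a homeobox gene, was at 28.3, 26.3 and 24.2 TPM with IL-33/13/17A, against 0, 0.302 and 0 TPM with IL-33/17A, 35.5, 41.9 and 39.2 TPM with IL-33/13 and 0, 0.358 and 0.345 TPM with IL-33. With 0 to 1 reads per IL-33 library, the log2 change of 4.48 ± 0.15 depends on the pseudocount. Msx3 was lower with the triple combination than with IL-33/13 (-0.55 ± 0.15, adjusted p = 0.04). Of the 21 tested mesenchyme and homeobox factors, Msx3 and 3 others rose and 10 fell (3 and 8 without replicate 1 of IL-33/13/17A). The falls include Tcf21, a factor of lung lipofibroblasts (-0.57 ± 0.17), and Prrx2 (-0.60 ± 0.10), and the rises Twist2 (0.55 ± 0.07).

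Further large rises were those of Rassf10, of the Ras association domain family (3.83 ± 0.12), and of Upp1, the uridine phosphorylase gene (3.02 ± 0.15). Rassf10 averaged 29.9 ± 1.31 TPM with IL-33/13/17A, 9.61 ± 0.61 TPM with IL-33/17A, 14.6 ± 1.32 TPM with IL-33/13 and 1.18 ± 0.302 TPM with IL-33. Rnase2a, of a ribonuclease family with close copies, rose by 3.01 ± 0.16. The 15 largest rises also include 2 genes whose values are weak. The locus 1810049J17Rik, which the files mark as protein-coding, was at 103, 7.44 and 5.01 TPM with IL-33/13/17A and shares 450 exon bases with Golph3 on the opposite strand. Its call was lost without replicate 1 of IL-33/13/17A and without each of the IL-33 libraries. The histone gene H2bc15 rests on 5 to 6 reads per IL-33/13/17A library and 0 to 1 per IL-33 library.

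Contractile and TGF-beta response genes fell without exception among those listed. All 18 were tested and called lower, also with median-ratio scaling and without replicate 1 of IL-33/13/17A, beside 17.2% of all genes. Their median log2 change was -1.21. Acta2 (ENSMUSG00000035783, chromosome 19, 34241090 to 34255590), the smooth muscle actin gene by which myofibroblasts are recognised, was at 406, 430.3 and 428 TPM with IL-33/13/17A, against 724, 668 and 626 TPM with IL-33/17A, 762, 735 and 744 TPM with IL-33/13, 1356, 1358 and 1338 TPM with IL-33 and 1955, 1993 and 1915 TPM in untreated cells. The triple combination lay below both pairs, both pairs below IL-33 and IL-33 below untreated cells, with no overlap between these steps. The IL-33 mean was 3.21 times that of IL-33/13/17A (-1.68 ± 0.04, adjusted p = 7.5e-11).

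Cnn1 (ENSMUSG00000001349, chromosome 9, 22099216 to 22109630), the calponin gene, was at 119.9, 128 and 126 TPM with IL-33/13/17A, against 229, 215 and 208 TPM with IL-33/17A, 241, 237 and 244 TPM with IL-33/13 and 475, 471 and 441 TPM with IL-33 (-1.88 ± 0.04, adjusted p = 1.9e-11). It kept the same order of groups as Acta2. Ankrd1 (ENSMUSG00000024803, chromosome 19, 36111961 to 36120099), a target of the mechanosensitive cofactor YAP, was at 36, 35.4 and 35.6 TPM with IL-33/13/17A, against 43.2, 35.4 and 36.3 TPM with IL-33/17A, 82.2, 89.1 and 83.1 TPM with IL-33/13 and 136, 149 and 138 TPM with IL-33 (-1.95 ± 0.06, adjusted p = 4.2e-10). Here the triple combination and IL-33/17A were not told apart (-0.10 ± 0.06). Lmod1, the leiomodin gene, Actg2, an actin gene, and Myl9 changed by -1.93 ± 0.08, -1.55 ± 0.07 and -1.45 ± 0.08. Ccn2, the gene of connective tissue growth factor, averaged 1868 ± 67.2 TPM with IL-33/13/17A and 4242 ± 183 TPM with IL-33 (-1.18 ± 0.05). The smallest fall of the list was that of Ltbp2, a binding protein of latent TGF-beta (-0.34 ± 0.03). Markers of smooth muscle and pericytes (Lmod1, Myh11 and Des are in both lists) summed to 55.4 to 60.7 TPM with IL-33/13/17A and 144 to 155 TPM with IL-33, and 6 of 7 tested fell. Their part in these changes was not tested.

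Of 20 tested collagen chains 19 fell and none rose (17 fell with median-ratio scaling), beside 17.2% of all genes lower, with a median of -0.61. Col1a1 (ENSMUSG00000001506, chromosome 11, 94936224 to 94953042), a chain of type I collagen, was at 3447, 3174 and 2946 TPM with IL-33/13/17A, against 4163, 5371 and 4767 TPM with IL-33/17A, 4059.6, 4084 and 3938 TPM with IL-33/13 and 5471, 5409 and 4724 TPM with IL-33 (-0.71 ± 0.10, adjusted p = 0.00018). The IL-33/17A libraries overlapped those of IL-33, and the triple combination was below all of them. Col6a3, a chain of the microfibrillar type VI collagen, was at 22, 22 and 23.1 TPM with IL-33/13/17A, against 46.1, 47.1 and 46.4 TPM with IL-33/17A, 32.2, 32.1 and 32.4 TPM with IL-33/13 and 72.9, 78 and 79.7 TPM with IL-33 (-1.74 ± 0.04, adjusted p = 1.9e-11). Its partner chains Col6a1 and Col6a2 changed by -0.32 ± 0.05 and -0.29 ± 0.05. Col5a1, Col11a1 and Col15a1 each fell by over 1 on the log2 scale, whereas Col3a1 changed by -0.14 ± 0.05 (adjusted p = 0.044), its call lost under 9 of 15 alternatives.

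**Figure D3:**
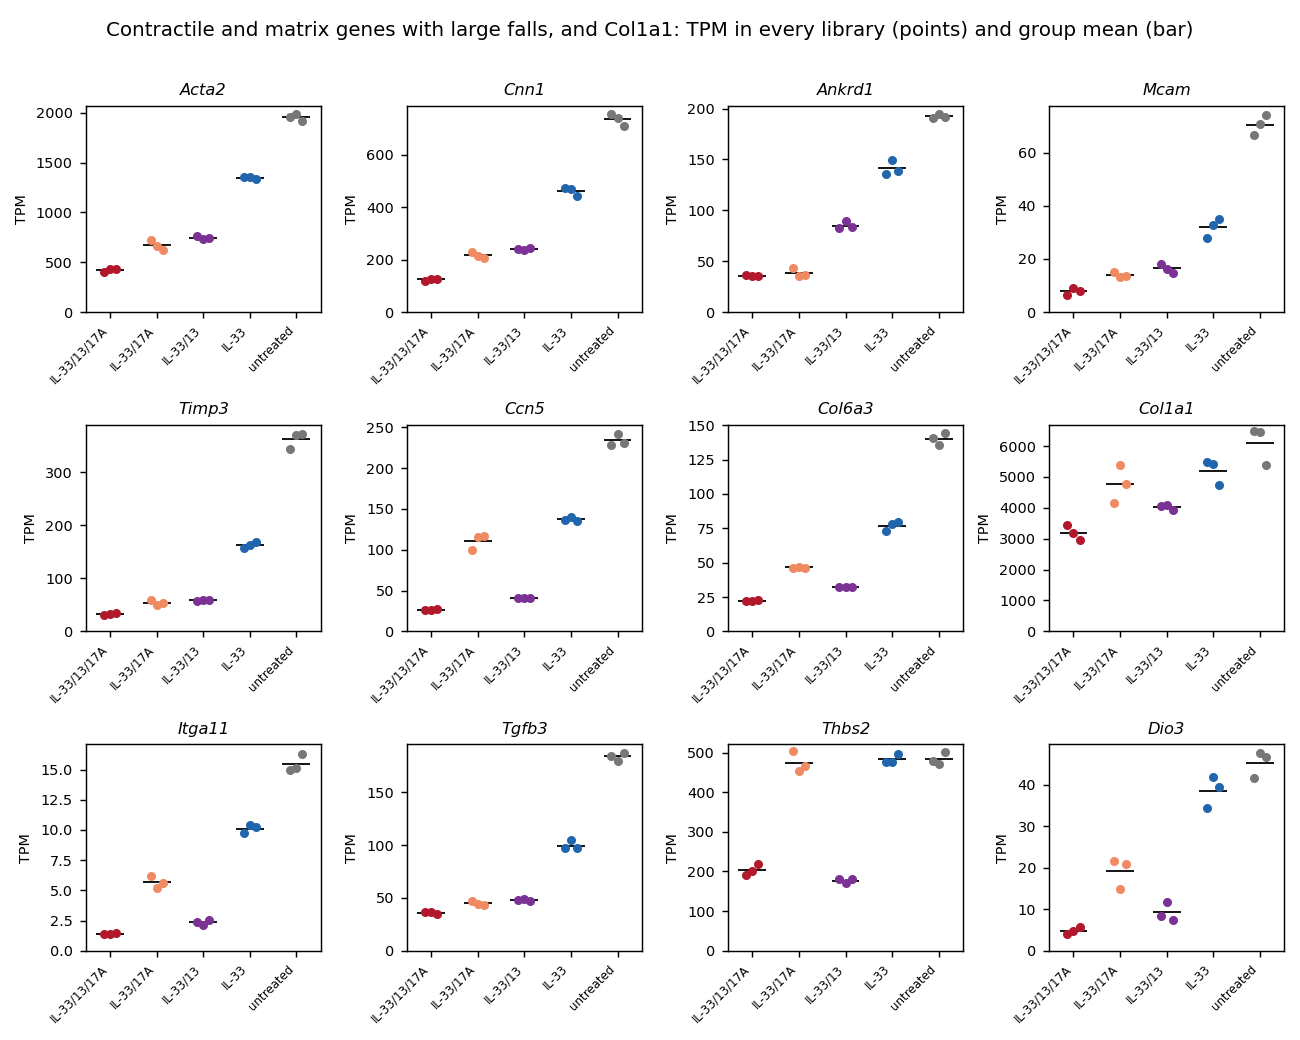
The TPM of 12 genes that fell, in every library, by group; points are libraries and bars are means of 3. Acta2, Cnn1, Mcam, Timp3 and Tgfb3 are lowest with IL-33/13/17A, higher with both pairs, higher again with IL-33 and highest in untreated cells, while Thbs2 is low in both groups with IL-13 and Ankrd1 is lowest in both groups with IL-17A.

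Of 33 other tested matrix genes, 21 fell (20 without replicate 1 of IL-33/13/17A) and 7 rose, with a median of -0.37. The largest fall was that of Ccn5 (ENSMUSG00000027656, chromosome 2, 163820861 to 163833146), a matricellular protein gene, at 26.3, 25.8 and 27.6 TPM with IL-33/13/17A, against 99.1, 115 and 117 TPM with IL-33/17A, 40.3, 40.9 and 40.5 TPM with IL-33/13 and 137, 141 and 135 TPM with IL-33 (-2.33 ± 0.05, adjusted p = 2.1e-11). Thbs2, the thrombospondin 2 gene, was at 191, 202 and 219.8 TPM with IL-33/13/17A, against 504, 453 and 466 TPM with IL-33/17A, 180.3, 170.2 and 180.4 TPM with IL-33/13 and 477, 476 and 497 TPM with IL-33 (-1.24 ± 0.05). The groups with IL-13 lay below those without it, and the triple combination was slightly above IL-33/13 (0.20 ± 0.05, adjusted p = 0.037). The hyaluronan synthases split, with Has1 higher (1.17 ± 0.13) and Has2 lower (-0.88 ± 0.06). The genes of tenascin C, Tnc (0.42 ± 0.03), periostin, Postn (0.40 ± 0.07), and decorin, Dcn (0.34 ± 0.08), rose, as did the crosslinking enzymes Lox (0.22 ± 0.06), Loxl3 (0.65 ± 0.06) and Loxl4 (0.51 ± 0.07).

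Matrix-degrading enzymes and their inhibitors were divided, 9 of 24 tested genes rising and 9 falling. The collagenase gene Mmp13 averaged 756 ± 76.3 TPM with IL-33/13/17A and 281 ± 16 TPM with IL-33 (1.42 ± 0.08). The gelatinase gene Mmp9, the stromelysin genes Mmp10 and Mmp3 and the aggrecanase gene Adamts4 rose by 1.26 ± 0.05, 0.97 ± 0.09, 0.69 ± 0.07 and 1.04 ± 0.05. The inhibitors moved apart. Timp3 (ENSMUSG00000020044, chromosome 10, 86300372 to 86349506), which holds to the matrix, was at 30.9, 33.2 and 34.2 TPM with IL-33/13/17A, against 59.3, 50.1 and 52.6 TPM with IL-33/17A, 57.8, 59.3 and 59.2 TPM with IL-33/13, 157, 163 and 168 TPM with IL-33 and 344, 370.2 and 372 TPM in untreated cells (-2.27 ± 0.06, adjusted p = 6.8e-11). Timp1, which is secreted freely, was at 3705, 3299.6 and 2964 TPM with IL-33/13/17A, against 2248, 3026 and 2742 TPM with IL-33/17A, 3436, 3387 and 3271 TPM with IL-33/13 and 2161, 2059 and 1817 TPM with IL-33 (0.72 ± 0.12, adjusted p = 0.00096). It overlapped both pairs. Timp2 was not called (-0.06 ± 0.03). Of 10 plasminogen activators and serpins 7 rose, among them Serpina3n (2.49 ± 0.14) and Serpinb2 (1.61 ± 0.07), and 2 fell, among them Plat (-0.53 ± 0.07), the gene of the tissue plasminogen activator.

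Integrins and adhesion molecules fell in 11 of 22 tested cases and rose in 4. Itga11 (ENSMUSG00000032243, chromosome 9, 62677826 to 62783982), a collagen receptor chain of fibroblasts, was at 1.38, 1.35 and 1.48 TPM with IL-33/13/17A, against 6.21, 5.16 and 5.62 TPM with IL-33/17A, 2.34, 2.16 and 2.56 TPM with IL-33/13 and 9.72, 10.4 and 10.2 TPM with IL-33 (-2.21 ± 0.07, adjusted p = 2e-10). Mcam, the CD146 gene, and Itga5, a chain of the fibronectin receptor, fell, with log2 changes of -1.91 ± 0.12 and -1.01 ± 0.03, while Itgb3 rose by 1.06 ± 0.05. Of the 31 tested growth factor genes 8 rose and 10 fell (9 and 9 without replicate 1 of IL-33/13/17A). Tgfb3 fell to 36.1 ± 0.756 TPM with IL-33/13/17A, against 99.7 ± 4.36 TPM with IL-33 (-1.44 ± 0.04, adjusted p = 1.6e-10), and Tgfb2 and Bmp4 changed by -0.93 ± 0.09 and -0.92 ± 0.20, whereas Tgfb1 was not called (0.01 ± 0.05). The EGF receptor ligands Hbegf, Areg and Ereg rose by 1.34 ± 0.04, 0.86 ± 0.17 and 0.75 ± 0.09. Dio3 (ENSMUSG00000075707, chromosome 12, 110279068 to 110281097), the gene of the deiodinase that inactivates thyroid hormone, had the largest fall of the named genes, at 4.05, 4.7 and 5.67 TPM with IL-33/13/17A, against 21.6, 14.8 and 20.9 TPM with IL-33/17A, 8.48, 11.8 and 7.4 TPM with IL-33/13 and 34.4, 41.9 and 39.3 TPM with IL-33 (-2.77 ± 0.17, adjusted p = 1.1e-07). It rests on 9 to 12 reads per library of the triple combination. Pappa, a protease gene that frees insulin-like growth factors, Hsd3b6, a steroid dehydrogenase gene, Nrep, Lrrc15 and the caveolin gene Cav1 were also among the 15 largest falls, with changes from -1.90 ± 0.09 for Pappa to -1.60 ± 0.09 for Cav1.

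**Figure D4:**
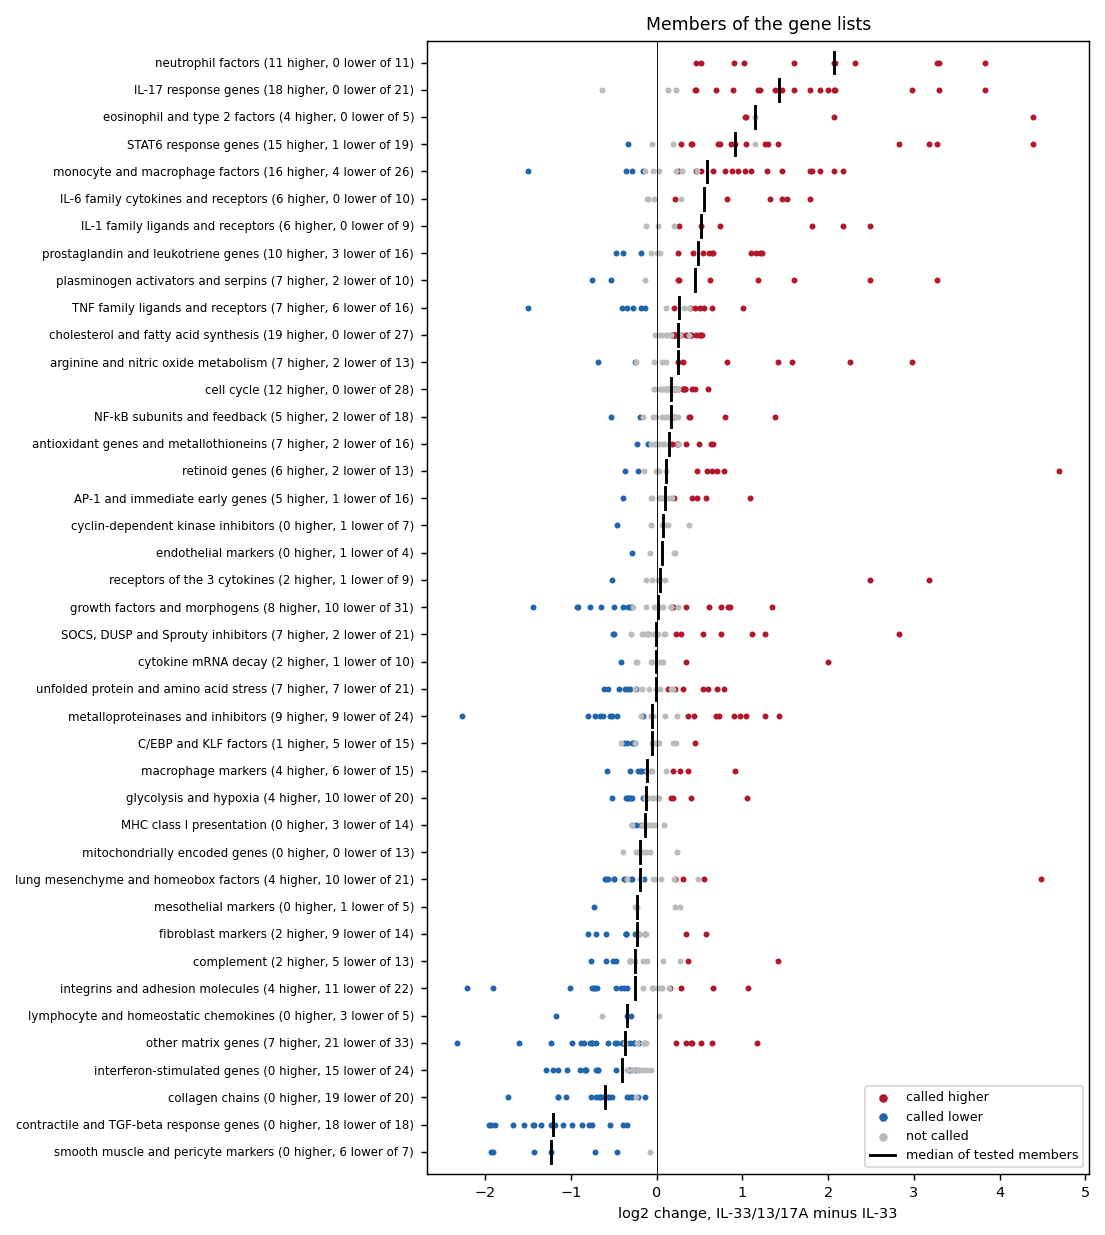
Each row is a gene list with at least 4 tested members, each point a tested member at its log2 change, IL-33/13/17A minus IL-33, and each bar the median. Neutrophil factors lie furthest to the right, and contractile genes and smooth muscle markers furthest to the left.

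Interferon-stimulated genes fell in 15 of 24 tested cases and rose in none (median -0.41), beside 17.2% and 8.5% of all genes, and 14 fell with median-ratio scaling. Gbp2, a guanylate-binding protein gene, averaged 7.61 ± 0.389 TPM with IL-33/13/17A and 18.9 ± 0.291 TPM with IL-33 (-1.21 ± 0.07, adjusted p = 9.8e-08). Isg15, a ubiquitin-like protein gene, was at 13.6, 20.6 and 19.3 TPM with IL-33/13/17A and 30.7, 39.1 and 54.2 TPM with IL-33, and its spread among the IL-33 libraries was wide (-1.15 ± 0.20). Irf7 and Irf9, factors that drive these genes, changed by -0.84 ± 0.13 and -0.47 ± 0.07. Cxcl10, a chemokine that interferon induces and that draws T cells, fell (-1.18 ± 0.27) and rests on 6 to 11 reads per IL-33/13/17A library. With Cxcl14 (-0.34 ± 0.05) and Cxcl16 (-0.30 ± 0.04) it made up the 3 of 5 tested lymphocyte and homeostatic chemokines that fell. Of 14 genes for class I antigen presentation, 3 fell on TPM, a share near the 17.2% of all genes, and none with median-ratio scaling. Complement genes split, with C3 rising to 166 ± 2.62 TPM with IL-33/13/17A, against 61.9 ± 3.33 TPM with IL-33 (1.41 ± 0.06), and Cfb (-0.77 ± 0.15), C4b (-0.59 ± 0.10) and 3 others of 13 falling. In all 2 rose and 5 fell, and 4 rose and 4 fell with median-ratio scaling.

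Genes of growth and metabolism moved by small steps. Of 28 cell cycle genes 12 rose and none fell (median 0.16), and 19 rose with median-ratio scaling and 14 without replicate 1 of IL-33/13/17A. The DNA precursor enzymes Rrm2 and Tyms led them, at 0.60 ± 0.05 and 0.44 ± 0.10, while Mki67 was not called (-0.04 ± 0.12). Of 7 cyclin-dependent kinase inhibitors 1 was called, Cdkn1b, which fell (-0.46 ± 0.07), a share no higher than the 17.2% of all genes. Of 27 genes for cholesterol and fatty acid synthesis 19 rose and none fell (median 0.25), 24 with median-ratio scaling, with Mvd at 0.52 ± 0.12 the largest change. In the list of glycolysis and hypoxia, 10 of 20 genes fell (7 with median-ratio scaling) and 4 rose, with the largest rise in the lactate transporter gene Slc16a1 (1.05 ± 0.05) and the largest fall in Ndrg1 (-0.52 ± 0.06). Stress genes of protein folding and amino acid supply rose in 7 of 21 tested cases and fell in 7 (6 without replicate 1 of IL-33/13/17A). The endoplasmic reticulum chaperone genes Creld2, Pdia4, Sdf2l1 and Hspa5 rose by 0.78 ± 0.06, 0.71 ± 0.05, 0.60 ± 0.07 and 0.54 ± 0.03, and the ATF4 targets Trib3, Chac1 and Asns fell, with log2 changes of -0.61 ± 0.10, -0.57 ± 0.10 and -0.37 ± 0.05. Of 16 antioxidant genes 7 rose and 2 fell (8 and 1 without replicate 1 of IL-33/13/17A), with Sod2 at 0.66 ± 0.04 and the metallothionein genes Mt2 and Mt1 at 0.49 ± 0.06 and 0.35 ± 0.07. None of the 13 mitochondrially encoded genes was called.

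All 14 fibroblast markers passed the filter, with a summed level of 10845 to 11460.3 TPM with IL-33/13/17A and 14203 to 15070.1 TPM with IL-33, and 9 fell while 2 rose (8 fell without replicate 1 of IL-33/13/17A and 7 with median-ratio scaling). Markers of macrophages were abundant as well, and of 15 tested 4 rose and 6 fell (5 and 3 with median-ratio scaling, 4 and 5 without replicate 1 of IL-33/13/17A). Lyz2, a lysozyme gene of myeloid cells, stood at 8628, 8642 and 8944 TPM with IL-33/13/17A and 9449, 9568 and 9864 TPM with IL-33. Its call was lost under 6 of 15 alternatives, among them median-ratio scaling and the fit without replicate 1 of IL-33/13/17A. Mrc1 rose (0.92 ± 0.06), Fcgr1 and Csf1r fell (-0.59 ± 0.06 and -0.22 ± 0.05), and Cx3cr1 was under the filter. The part of such cells in the results above was not tested. Epithelial markers summed to 6.32 to 8.92 TPM with IL-33/13/17A and 1.81 to 3.14 TPM with IL-33, with Cdh1 and Krt18 called higher and Epcam at 0.0602, 0.0629 and 0.253 TPM in the IL-33/13/17A libraries. Krt18 rests on 11 to 20 reads per IL-33/13/17A library and 2 to 4 per IL-33 library. Cdh1 was under 1 TPM in every IL-33 library and passed the filter only through IL-33/13/17A. Endothelial markers summed to 10.1 to 10.3 TPM with IL-33/13/17A and 8.18 to 9.95 TPM with IL-33, and the members went both ways. Pecam1, a defining endothelial marker, was under the filter, at 0.511, 0.514 and 0.478 TPM with IL-33/13/17A (48 to 54 reads) and 0.117, 0.0653 and 0.0734 TPM with IL-33 (6 to 11 reads), so it was higher in every IL-33/13/17A library. Of the 4 tested, Kdr fell (-0.28 ± 0.08), a call lost with median-ratio scaling and without replicate 1 of IL-33/13/17A, where 1 other member was called higher each time. Of mast cell and basophil markers Mcpt8 was the tested one (0.37 ± 0.07), of lymphocyte markers Il7r (-0.11 ± 0.13), and of 5 mesothelial markers Krt19 was called (-0.74 ± 0.14). The data hold 3 of the 10 listed mast cell and basophil markers, 3 of the 11 lymphocyte markers and 6 of the 11 epithelial markers.

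The triple combination was also set against each pair, for the genes named here. These comparisons share the IL-33/13/17A libraries with the one against IL-33, from which the genes were chosen, so their values are given side by side. Most of these genes were picked for large changes in the same libraries. An excess in the same direction over the shares of all genes is therefore partly built in, and the counts below are descriptions only. The mitochondrial share was low in every IL-33/13 library and in replicates 2 and 3 of IL-33/17A. With IL-33/13/17A it was low in replicate 1 only. Treatment and this share are thus partly mixed in the comparisons with the pairs. Of the 95 named genes that rose against IL-33, 69 were higher and 2 lower than with IL-33/17A, where 16.6% of all tested genes were called and 7.06% were higher. Of the same 95, 50 were higher and 2 lower than with IL-33/13, where 7.92% of all tested genes were called and 3.65% were higher. Of the 61 named genes that fell against IL-33, 48 were lower than with IL-33/17A and 26 lower and 1 higher than with IL-33/13, where 9.52% and 4.27% of all tested genes were lower.

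Among the named genes called against IL-33/17A, the largest differences were those of Msx3 (4.64 ± 0.15), Aldh1a3 (4.46 ± 0.11), Ccl11 (3.36 ± 0.13) and Rnase2a (2.84 ± 0.16) for higher genes, and of Ccn5 (-2.01 ± 0.05), Dio3 (-1.78 ± 0.17) and Tnf (-1.62 ± 0.19) for lower ones. Against IL-33/13 they were those of Nos2 (3.67 ± 0.07), Csf3 (2.50 ± 0.13), Lcn2 (1.64 ± 0.10) and Cxcl1 (1.63 ± 0.15), and of Hsd3b6 (-1.48 ± 0.12), Lmod1 (-1.32 ± 0.08) and Ankrd1 (-1.23 ± 0.06). Cxcl2 differed from the pairs by 1.64 ± 0.24 and 1.62 ± 0.24, Csf2 by 0.92 ± 0.16 and 1.05 ± 0.16, Acta2 by -0.67 ± 0.04 and -0.82 ± 0.04, and Cnn1 by -0.80 ± 0.04 and -0.94 ± 0.04, first against IL-33/17A and then against IL-33/13. Whether the effects of IL-13 and IL-17A add up was not tested.

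**Figure D5:**
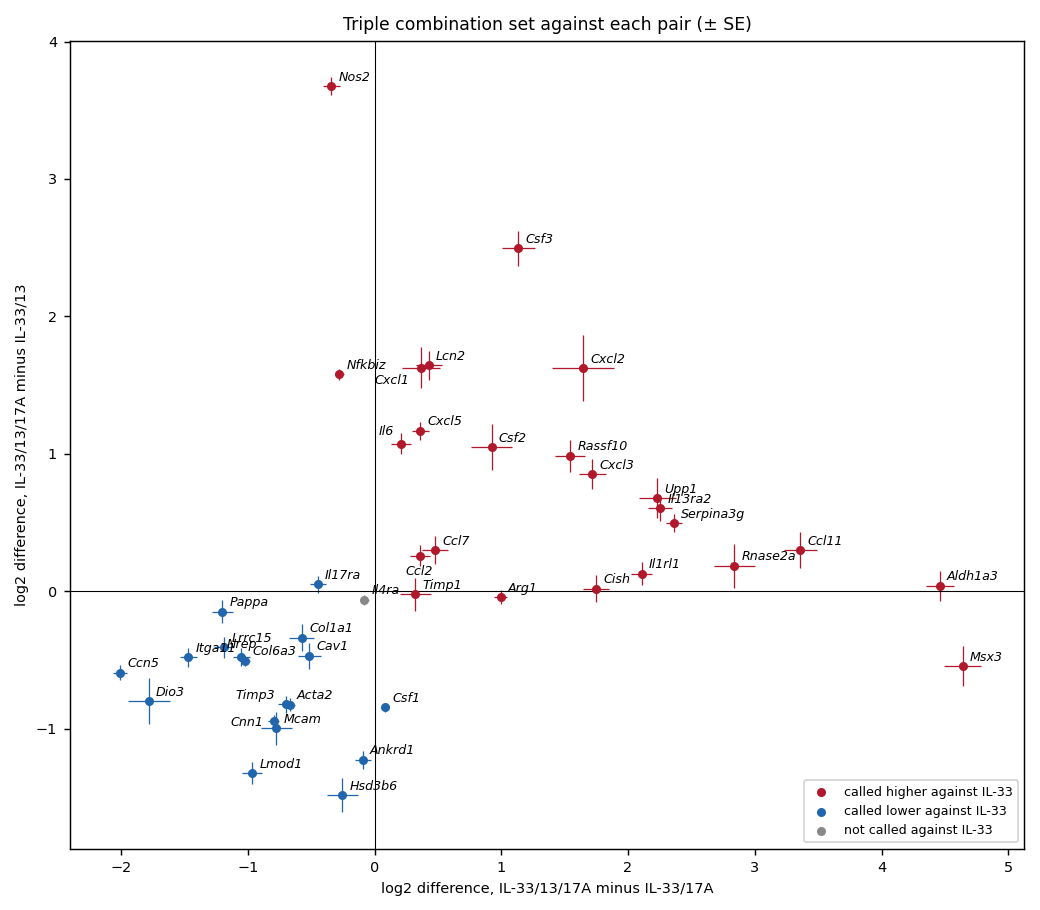
The difference of IL-33/13/17A from IL-33/17A (x axis) and from IL-33/13 (y axis), both log2 with SE bars, for the genes with the largest changes against IL-33 and the genes named whatever their values, without 1810049J17Rik and H2bc15. Aldh1a3, Msx3 and Ccl11 lie to the right near or below the height of 0, Nos2 and Nfkbiz lie high and left of 0, and Csf3, Cxcl2 and Cxcl3 lie to the right and above 0.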

How the data were processed

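RNA sequencing of 15 libraries of lung fibroblasts, 3 per group in 5 groups, was analysed from one table per library. Groups were read from the treatment labels. Per the labels' protocols, a Qiagen RNeasy kit gave the RNA and a NovaSeq6000 the reads. HISAT2 and the build mm10 are named in the submitters' processing notes, without versions. The deposited values are TPM, made by the authors over the gene span (the length column in the file headers equals end minus start). How reads of overlapping or similar genes were assigned, and whether strand was used, is not given in the sources used here. Of 18078 gene identifiers, 18062 are in GENCODE vM21, 17882 with the same start and end, and 19 symbols are shared by several identifiers.

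TPM times length were whole multiples of 1 step in 89.2% to 90.4% of low values within a tolerance of 0.02 reads, which gave depths of 10555000 to 15123000 reads. No molecular identifiers are named in the labels, so read numbers show counting error only. Because the files hold TPM and not counts, limma 3.58.1 (R 4.3.3, trend and robust options) was fitted to log2(TPM + 1) of all 15 libraries in 1 fit with a mean per group, and p-values were adjusted over 13265 genes (Benjamini-Hochberg, threshold 0.05). On simulated data the fit was checked with known changes. Tables were joined with Python 3.11.15, pandas 2.3.3 and numpy 2.4.6, and drawn with matplotlib 3.10.9. Promoters came from RefSeq.

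The members and gene lists were chosen with earlier results of these data known, so the lists' counts are descriptions. The 157 named genes are the 15 largest rises and the 15 largest falls among called protein-coding genes with at least 10 TPM in the higher group and no overlap, up to 4 called members per list with the largest change, and a set of cytokine, receptor, enzyme and matrix genes taken whatever their values. Other members of a list are named as examples chosen after their values were seen. Alternatives changed the pseudocount, filter, scaling, libraries, variance model and a term for libraries with a low mitochondrial share, and a voom fit on recovered reads was added after seeing the data. Replicates were numbered in accession order, which pairs nothing. Of the 157 named genes, 19 share exon bases with another gene, so their reads may be mixed.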

Additional observations from a re-analysis of the deposited data

How the results depend on the processing

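The number of genes called with IL-33/13/17A against IL-33 was 3407, and ran from 2396 with only the 6 libraries in the fit to 3646 without a filter on low values. Leaving out 1 library gave 2673 to 3016 calls. With median-ratio scaling 3358 genes were called, of which 2721 were also called in the same direction on TPM, and a term for the libraries with a low mitochondrial share gave 3608. That term was itself called for 2294 genes, 627 higher and 1667 lower in those libraries. The count of changes of at least 2-fold, 299, became 391 with a pseudocount of 0.1, 127 with 5 and 399 with voom. Named genes called against IL-33/17A numbered 119 (103 to 126 over the alternatives, 103 to 121 without 1 IL-33/13/17A library), and against IL-33/13 79 (67 to 85, 67 to 83 without 1 IL-33/13/17A library). No named gene reversed. Of the 156 named genes called against IL-33, 146 stayed called under all 15 alternatives that tested them. The other 10 (Ccl24, 1810049J17Rik, Kdr, Klf3, Ptprc, Tapbp, Tap2, H2-T23, Zfp36l2 and Tcf21) lost the call at least once, and the cause was not tested.

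No paired analysis was possible because the labels give no replicate numbers. With 1 library left out its group has 2, and the fit then assumes that they vary like the other groups. TPM scale every library to the same total, so total RNA per cell was not measured. Genes under about 10 reads per library, such as Ccl24, H2bc15 and Dio3, are the least precise.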

Other observations

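The following genes belong to no list and were chosen after their values were seen. Several encode secreted or surface proteins of high level. Pf4 (ENSMUSG00000029373, chromosome 5, 90772435 to 90773383), a chemokine gene best known from platelets that lies near Cxcl3, was at 1347, 1444 and 1362 TPM with IL-33/13/17A, against 625, 793 and 649 TPM with IL-33/17A, 1032, 1014 and 878 TPM with IL-33/13 and 416, 450.3 and 426 TPM with IL-33 (1.68 ± 0.10, limma adjusted p = 1.4e-07). The triple combination was above both pairs and both were above IL-33. Procr, the endothelial protein C receptor gene, averaged 429 ± 33.1 TPM with IL-33/13/17A and 113 ± 6.52 TPM with IL-33, and Penk, the proenkephalin gene, 481 ± 41.7 TPM with IL-33/13/17A and 188 ± 15.5 TPM with IL-33. Igfbp3, which binds insulin-like growth factors, averaged 289.8 ± 16.2 TPM with IL-33/13/17A, 72 ± 4.28 TPM with IL-33/17A, 316 ± 11.8 TPM with IL-33/13 and 95.8 ± 6.92 TPM with IL-33, so that the groups with IL-13 stood together. Rgs16, a brake on G protein signalling, and Gja1, the connexin 43 gene, rose by 1.26 ± 0.04 and 1.20 ± 0.06. Tfpi2, a protease inhibitor gene, and Crispld2 rose by 2.45 ± 0.12 and 2.33 ± 0.05.

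Thyroid hormone deiodinases moved apart. Dio2, whose enzyme activates thyroid hormone, was at 543, 620.3 and 669 TPM with IL-33/13/17A, against 379, 289 and 319.9 TPM with IL-33/17A, 340.0, 316 and 346 TPM with IL-33/13 and 175, 178 and 208 TPM with IL-33 (1.70 ± 0.10, limma adjusted p = 1.1e-07), while Dio3 fell as described above. The Notch ligand gene Dll1 averaged 9.39 ± 0.172 TPM with IL-33/13/17A and 2.27 ± 0.389 TPM with IL-33 (1.68 ± 0.09). Its mean was 12.3 ± 0.53 TPM with IL-33/17A and 0.969 ± 0.181 TPM with IL-33/13. The Notch target gene Hes1 averaged 19.2 ± 1.7 TPM with IL-33/13/17A and 50.8 ± 5.26 TPM with IL-33 (-1.36 ± 0.11). Its mean was 32.8 ± 2.52 TPM with IL-33/17A and 20.4 ± 2.82 TPM with IL-33/13, so the order of the pairs was not that of IL-33/13/17A and IL-33 for both genes alike. Fgf23, a hormone gene of phosphate balance, was at 4.4, 5.49 and 4.51 TPM with IL-33/13/17A and 0.242, 0.617 and 0.475 TPM with IL-33, where it had 2 to 5 reads per library. Of genes with myeloid expression, Clec7a (dectin-1) and Ms4a4a rose by 2.02 ± 0.12 and 1.77 ± 0.10, and Cybb, a subunit of the phagocyte oxidase, and Slamf9 fell, with log2 changes of -1.06 ± 0.07 and -1.29 ± 0.14. Cd248, the endosialin gene of mesenchymal cells, and F3, the tissue factor gene, fell, with log2 changes of -1.37 ± 0.06 and -1.38 ± 0.07.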
